A study of Mus musculus with 13 samples.

Results

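Flk-1+ haemangioblasts lacking Tal1 were compared directly with Flk-1+ haemangioblasts lacking Lmo2, to ask which genes and functions set the knockouts apart and which did not. The comparison covered 12259 of the 45250 genes in the deposited RNAseq expression table, namely those with a locus longer than 200 bp and a level of at least 1 FPKM (fragment density normalised to transcript length and library size) in 2 or more of the 6 knockout libraries. Of these genes, 9999 reached that level in at least 2 libraries of each genotype, whereas the others were tested because of the genotype in which they were higher. There were 3 independent libraries of Lmo2-/- cells and 3 of Tal1-/- cells, and 3 wild-type (WT) libraries gave the reference level. All 9 were prepared from untreated mouse embryonic stem (ES) cells that had been differentiated into embryoid bodies, from which Flk-1+ cells were enriched on magnetic columns. Each genotype was a single ES cell line, so an effect of genotype and a difference between lines cannot be told apart, and the ES cells had been kept on mouse embryonic fibroblasts. In such bulk samples fewer cells of a kind and less RNA per cell cannot be told apart either.

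The haemangioblast is a mesodermal cell that carries the VEGF receptor Flk-1 (gene Kdr) and can give rise to both blood and endothelium. TAL1 is a basic helix-loop-helix factor that binds DNA as a dimer with an E-protein such as TCF3. LMO2 has no DNA-binding domain and acts as a bridge, holding TAL1 and the E-protein together with LDB1 and GATA factors. Embryos without Tal1 lack blood and embryos without Lmo2 lack yolk sac red cells, and the direct comparison therefore looks for what differs between losing the DNA-binding partner and losing the bridge.

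The libraries carried the markers of sorted Flk-1+ mesoderm. Kdr lay between 68.7 and 252 FPKM and Pdgfra between 22.5 and 45.4 FPKM in all 9. The blood markers Ptprc and Hbb-bh1 and the fibroblast gene Lum were listed at 0 throughout, while Itga2b, a marker of early blood progenitors, reached 5.54 FPKM. The fibroblast genes Dcn and Col3a1 did not exceed 0.678 and 0.776 FPKM, and Zfp42, a marker of undifferentiated ES cells, did not exceed 0.998 FPKM. Other listed markers of these cells were present. The ES cell markers Pou5f1, Nanog and Esrrb reached 16.4, 6.3 and 1.55 FPKM. The fibroblast markers Col1a1, Col1a2, Postn and Thy1 reached 30.3, 3.57, 3.02 and 2.81 FPKM. Lmo2-/- replicate 1 stood apart from its group, with a correlation of 0.819 to 0.837 to the other Lmo2-/- libraries, which had 0.894 between them. Its summed level of 10 listed macrophage markers was 13.1 FPKM against 2.18 and 2.86 FPKM. That sum came from the 1 marker that was tested, and WT replicates 0 and 1 had sums of 4.78 and 4.75 FPKM. The Tal1-/- libraries correlated at 0.786 to 0.813 with each other. All 6 knockout libraries correlated best with a WT library, at 0.824 to 0.916. For some of the genes and lists that rest on Lmo2-/- replicate 1, the value without it is given beside the result.

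The targeted genes came first as a check of the labels. Tal1 was present at 37.4, 25.6 and 21.98 FPKM in the WT libraries, at 6.51, 29.0 and 6.64 FPKM in Lmo2-/- and at 2.74, 3.41 and 2.88 FPKM in Tal1-/-. Lmo2 was present at 22.9, 30.8 and 21.6 FPKM in WT, at 2.63, 6.47 and 2.17 FPKM in Lmo2-/-, and in Tal1-/- it was listed at 0 in replicate 0, with 7.58 and 1.29 FPKM in the other two. Each gene was thus below every WT library in its own knockout, and Lmo2 was below every WT library in both knockouts, with a difference of -0.71 between Tal1-/- and Lmo2-/- on the log2(FPKM + 1) scale (95% interval -2.12 to 0.70). Tal1 was within the WT range in Lmo2-/- replicate 1, and the other Lmo2-/- libraries also lay above Tal1-/-. The Tal1 difference of -1.58 was -0.92 without Lmo2-/- replicate 1, and that of Lmo2 was -0.33. All differences below are Tal1-/- minus Lmo2-/- on this scale, which understates the change of low genes.

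Few genes passed the test. With limma over the 9 Flk-1+ libraries and Benjamini-Hochberg adjustment over all tested genes, 3 genes had an adjusted p below 0.05 and a mean above 10 FPKM in either knockout, which is 0.0245% of those tested. Tex15 rose, while Grb10 and the processed pseudogene Gm12929 fell. At an unadjusted p below 0.05 there were 1142 genes, 485 of them higher and 657 lower in Tal1-/-. The exact permutation test of 3 libraries against 3 cannot go below p = 0.1, so a second description was used beside the test. A gene is called separated where the 3 libraries of one knockout all lie above the 3 of the other and the difference is at least 1. In Tal1-/-, 233 genes (1.9%) were separated and higher and 388 (3.17%) were separated and lower. Without the limit on size, 884 genes (7.21%) lay higher and 815 (6.65%) lower without overlap.

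Among the separated genes, the Tal1-/- libraries lay outside the WT range more often than the Lmo2-/- libraries did. Of the 233 higher genes, Tal1-/- lay above all WT libraries for 126, whereas Lmo2-/- lay below all WT libraries for 35. Of the 388 lower genes, Tal1-/- lay below all WT libraries for 224, and Lmo2-/- lay above them for 66. Both knockouts were set against the same WT libraries, so these counts are given side by side only. The shares of all tested genes outside the WT range are not given here, so the counts do not extend beyond the separated genes.

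Tex15, on chromosome 8 (33516738-33585582, plus strand, GRCm38), encodes a protein needed for meiotic recombination and retrotransposon silencing in male germ cells. It was measured at 5.29, 1.78 and 2.74 FPKM in WT, at 0.965, 1.62 and 1.37 FPKM in Lmo2-/- and at 16.8, 17.3 and 18.4 FPKM in Tal1-/-. The Tal1-/- libraries were tightly grouped and far above the other 6 (difference 3.01, SE 0.38, limma adjusted p = 0.0249). No other gene of a fixed list of 20 germline genes was tested, and 10 of them were listed at 0 in all 6 knockout libraries.

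Grb10, on chromosome 11 (11930508-12038683, minus strand), is an imprinted gene whose product is an adaptor that dampens insulin and IGF receptor signalling. Its levels were 119, 12.5 and 14.4 FPKM in WT, 58.0, 128 and 76.8 FPKM in Lmo2-/- and 3.04, 0.182 and 0.619 FPKM in Tal1-/-. The knockouts were far apart (difference -5.41, SE 0.74, limma adjusted p = 0.0345), and WT replicate 0 lay with Lmo2-/- while the other two WT libraries lay between the knockouts. Gm12929, on chromosome 4 (126476302-126476671, minus strand), was at 6.82, 8.65 and 6.75 FPKM in WT and 7.53, 13.2 and 9.85 FPKM in Lmo2-/-, and in Tal1-/- it was at 0.879 FPKM in replicate 0 and listed at 0 in the others (difference -3.15, SE 0.39, limma adjusted p = 0.0249). As a processed copy it may share reads with its parent gene, so its level is uncertain. The 3 calls were lost when any 1 library other than Tal1-/- replicate 0 was left out. Without Tal1-/- replicate 0 there were 5 calls. Without Tal1-/- replicate 2 there were 2 calls of other genes, among them Snord17, with limma adjusted p-values of 0.0572 for Tex15 and Gm12929 and 0.0841 for Grb10. Over all alternatives the limma adjusted p ranged from 0.0115 to 0.154 for Tex15, to 0.203 for Grb10 and to 0.281 for Gm12929, and each difference kept its direction.

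**Figure D1:**
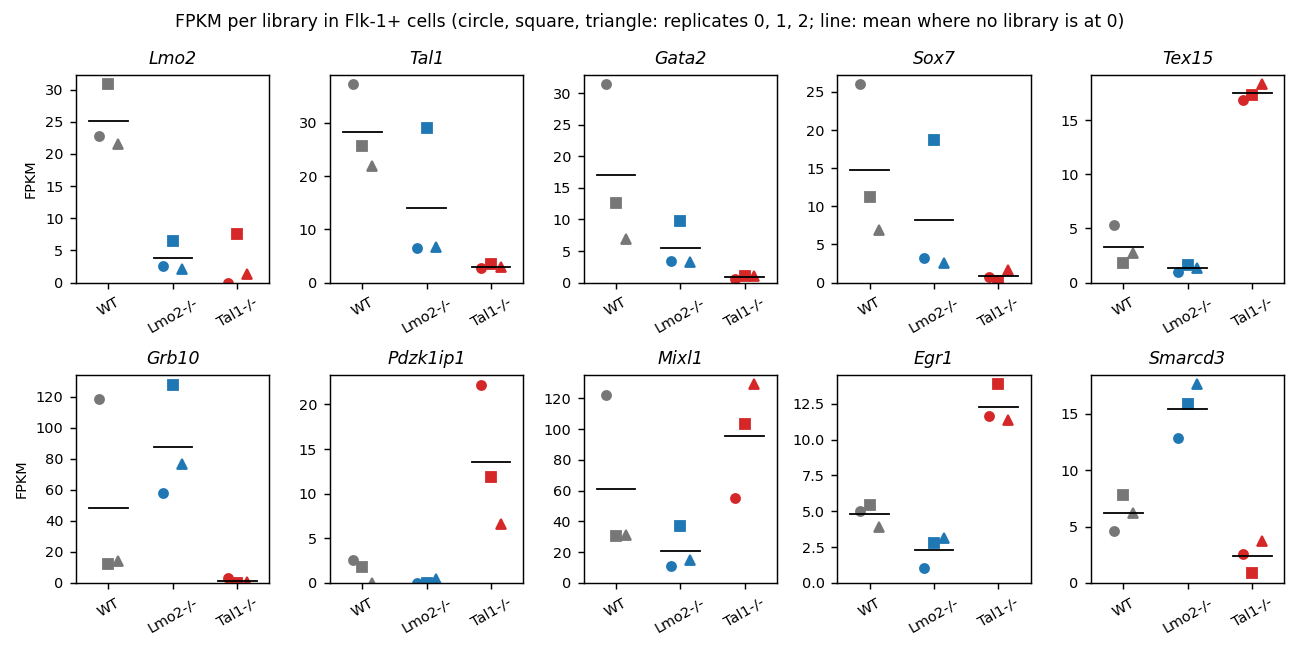
FPKM of 10 genes in the WT, Lmo2-/- and Tal1-/- Flk-1+ libraries, one panel per gene with FPKM on the vertical axis, points for replicates 0, 1 and 2 and a line at the mean where no library is at 0. Tex15, Egr1 and Pdzk1ip1 are higher in all Tal1-/- libraries than in any Lmo2-/- library, Grb10 and Smarcd3 are lower, and Lmo2 is low in both knockouts.

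With the called genes included, 10 genes had an adjusted p below 0.10 in limma. Among separated genes with a mean of at least 10 FPKM in either knockout, the largest positive difference was that of Pdzk1ip1, a small membrane protein gene at chromosome 4 (115088708-115093899, plus strand), which starts 32.28 kb downstream of the start of Tal1 itself. It was at 2.56 and 1.80 FPKM in WT replicates 0 and 1 and listed at 0 in replicate 2, and it was listed at 0 in Lmo2-/- replicates 0 and 1, with 0.428 FPKM in replicate 2. The Tal1-/- libraries held 22.2, 11.8 and 6.61 FPKM, above every other library (difference 3.54, SE 0.55, limma adjusted p = 0.0741).

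Further downstream, the antisense transcript Cyp4x1os (chromosome 4, 115133832-115137864, plus strand), 77.41 kb from the Tal1 start, was at 1.26, 2.93 and 2.40 FPKM in Tal1-/- and listed at 0 in all WT and Lmo2-/- libraries. The gene it overlaps, Cyp4x1, was at 0.654, 0.686 and 0.484 FPKM in WT, at 0.266, 0.133 and 0.449 FPKM in Lmo2-/- and listed at 0 in all Tal1-/- libraries. Whether strand was used when fragments were assigned is not stated in the sources used here, so reads of this pair may not be told apart. Upstream of Tal1, Stil (difference 0.52) and Cmpk1 (0.23) were not separated. Within the same distance of Lmo2, 200 kb on either side, the 4 tested neighbours Nat10 (0.41), Caprin1 (-0.02), Fbxo3 (-0.08) and Cd59a (0.45) all overlapped between the knockouts. Both separated neighbours of Tal1 thus lay on its downstream side. How the Tal1 allele of this line was altered is not given in the sources used here, and its part in the neighbouring values was not tested. Apart from genes described below, the 10 largest positive differences also held Syce2 (2.11), a synaptonemal complex gene, and the predicted or non-coding genes Gm17052, Gm29808, Rps15a-ps8, Gm15452 and Gm25939. The 10 largest negative ones also held the small nucleolar RNA gene Snord17, Gm23833, Gm10146, Lppr3 (-3.35), Capn6 (-2.94) and Arfip2 (-2.80, limma adjusted p = 0.0741).

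**Figure D2:**
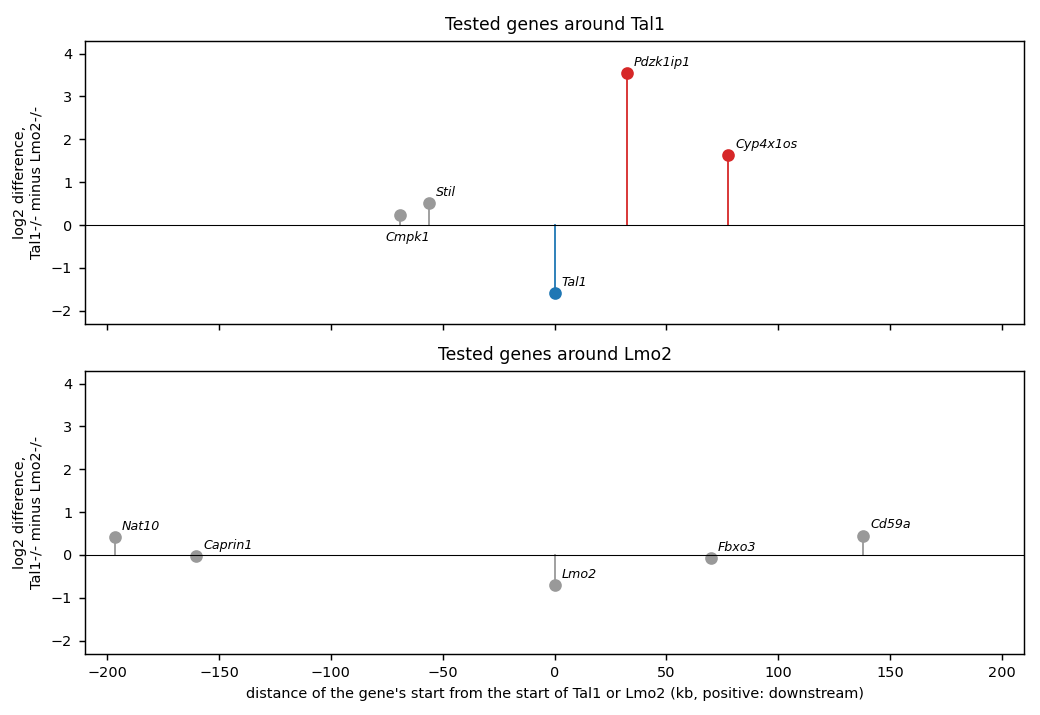
Differences between Tal1-/- and Lmo2-/- (vertical axis, log2 FPKM + 1) for the tested genes within 200 kb of the start of Tal1 (top) and Lmo2 (bottom), by distance in kb on the horizontal axis. Coloured points are separated genes: Pdzk1ip1 and Cyp4x1os are higher and Tal1 is lower, and no neighbour of Lmo2 is separated.

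The rest of the transcriptome was described through 50 lists of genes with a shared function, each read against the background of 1.9% separated and higher and 3.17% separated and lower. The median difference over all tested genes was -0.0024, and the 5th and 95th percentiles were -1.08 and 0.90. Lists with medians well below 0 held cardiac transcription factors (-1.06), smooth muscle contractile genes (-1.06) and cardiac sarcomere genes (-0.88). The list of sterol synthesis genes (-0.75) was drawn up after some of its members had been seen among the differing genes, so it is not ranked with the others. Among the lists with at least 6 tested members, pluripotency genes had the highest median (0.81), followed by genes of FGF signalling (0.47) and immediate early genes (0.47). Only 5 of 9 tested pluripotency, 3 of 10 sarcomere and 4 of 8 smooth muscle genes reached 1 FPKM in both knockouts. Their medians thus rest partly on genes tested because of the knockout in which they were higher. The pluripotency median was -0.09 among genes with 10 FPKM in at least 1 library. Members without overlap are read against 7.21% higher and 6.65% lower among all tested genes.

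**Figure D3:**
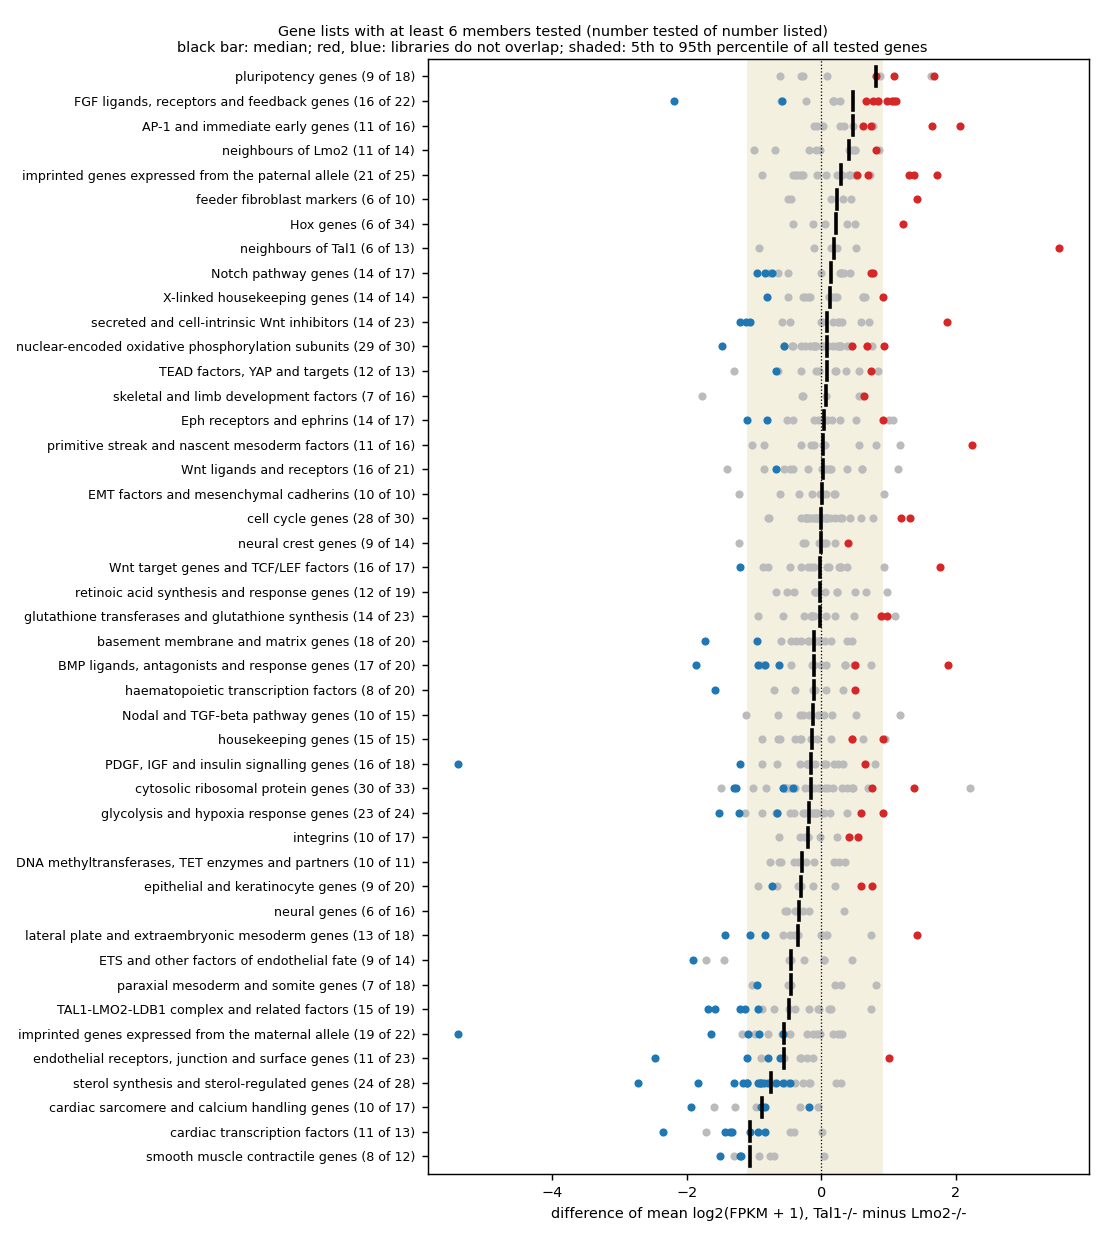
Each dot is one tested gene and each line of dots one of the 45 lists with at least 6 tested members, ordered by median (black bar), with the Tal1-/- minus Lmo2-/- difference in log2(FPKM + 1) on the horizontal axis. Coloured dots are genes whose libraries do not overlap (red higher, blue lower in Tal1-/-). Shading spans -1.08 to 0.90, the 5th to 95th percentile of all tested genes. Cardiac and smooth muscle genes sit at the low end and pluripotency and FGF genes at the high end. Some cardiac, smooth muscle and pluripotency genes were tested because of the knockout in which they were higher. The sterol list, also at the low end, was drawn up after some of its genes had been seen and is not ranked.

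Sterol synthesis was among the functions with members that were lower in Tal1-/- without overlap. The pathway converts acetyl-CoA through HMG-CoA, squalene and lanosterol to cholesterol, and its genes and Insig1 are activated by SREBP2 when cells are short of sterol. The list of 28 such genes was drawn up after Lss, Ebp and Insig1 had been seen among the differing genes. Its counts include these genes and are a description only, not to be ranked against other lists. Of 24 tested members (21 reached 1 FPKM in at least 2 libraries of both knockouts), 14 were lower in Tal1-/- without overlap, beside 6.65% of all genes, and 6 of these were separated, beside 3.17%. There were 0 higher without overlap. Relative to WT the list lay on both sides, with a median of 0.41 for Lmo2-/- and -0.32 for Tal1-/-.

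Lss, which encodes lanosterol synthase, was at 22.4, 22.7 and 15.3 FPKM in WT, at 30.6, 31.2 and 31.1 FPKM in Lmo2-/- and at 7.15, 7.01 and 9.97 FPKM in Tal1-/-. Every Lmo2-/- library was above every WT library and every Tal1-/- library below (difference -1.84, SE 0.30, limma adjusted p = 0.087). Insig1, the sterol sensor that retains SREBP in the endoplasmic reticulum and is itself an SREBP target, followed the same order with 13.01, 16.8 and 12.2 FPKM in Lmo2-/-, 11.99, 9.14 and 11.3 FPKM in WT and 5.21, 6.32 and 6.28 FPKM in Tal1-/- (difference -1.10, limma adjusted p = 0.334).

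Ebp, an isomerase of the late pathway, was at 4.96, 12.9 and 5.67 FPKM in Lmo2-/-, and in Tal1-/- it was at 0.537 and 0.234 FPKM in replicates 0 and 2 and listed at 0 in replicate 1 (difference -2.73, limma adjusted p = 0.118). Its WT libraries, at 0.848, 3.15 and 5.02 FPKM, lay between and touched the Lmo2-/- range. Dhcr7 (-1.30), Fdft1 (-1.17) and Idi1 (-1.10), which encode a late reductase, squalene synthase and isopentenyl diphosphate isomerase, were the other separated members.

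Hmgcs1, encoding HMG-CoA synthase of the early pathway, was at 98.3, 99.5 and 69.0 FPKM in Lmo2-/- and 38.1, 48.3 and 60.5 FPKM in Tal1-/-, without overlap (-0.85). Srebf2, encoding SREBP2, differed by -0.50 with a 95% interval from -1.19 to 0.19. On the deposited values none of the sterol genes passed the adjusted threshold. Without Lmo2-/- replicate 1, which had the highest value for several of them, the list median was -0.62 and 2 rather than 6 members were separated.

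The promoters of Hmgcs1, Lss, Ebp and Insig1, as windows of 300 bases that span the RefSeq gene start (GRCm38.p6), are shown because these genes carry the sterol result at the early, middle and late steps and at the sensor. They lie at chr13:119690101-119690400 (plus strand), chr10:76531355-76531654 (plus), chrX:8193463-8193762 (minus) and chr5:28071162-28071461 (plus). Capitals mark the sterol regulatory element letters CACCCCAC (or GTGGGGTG on the other strand) and the NF-Y letters CCAAT (or ATTGG), searched on both strands.
Hmgcs1: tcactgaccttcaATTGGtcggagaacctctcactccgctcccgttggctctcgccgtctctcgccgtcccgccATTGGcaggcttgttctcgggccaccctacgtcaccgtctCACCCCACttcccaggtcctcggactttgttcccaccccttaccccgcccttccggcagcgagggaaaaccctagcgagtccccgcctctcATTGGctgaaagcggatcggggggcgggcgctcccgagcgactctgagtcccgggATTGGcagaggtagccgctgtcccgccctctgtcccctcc
Lss: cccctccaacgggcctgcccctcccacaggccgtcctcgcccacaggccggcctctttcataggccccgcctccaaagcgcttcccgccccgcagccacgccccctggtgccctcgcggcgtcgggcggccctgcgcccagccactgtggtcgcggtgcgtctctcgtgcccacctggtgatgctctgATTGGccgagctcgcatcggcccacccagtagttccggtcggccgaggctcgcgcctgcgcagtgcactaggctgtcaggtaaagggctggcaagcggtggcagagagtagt
Ebp: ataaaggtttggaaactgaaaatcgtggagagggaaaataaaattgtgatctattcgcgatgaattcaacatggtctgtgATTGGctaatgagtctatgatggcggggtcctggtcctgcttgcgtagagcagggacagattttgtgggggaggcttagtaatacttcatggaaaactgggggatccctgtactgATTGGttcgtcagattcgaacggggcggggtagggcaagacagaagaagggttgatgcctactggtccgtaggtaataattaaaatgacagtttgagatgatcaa
Insig1: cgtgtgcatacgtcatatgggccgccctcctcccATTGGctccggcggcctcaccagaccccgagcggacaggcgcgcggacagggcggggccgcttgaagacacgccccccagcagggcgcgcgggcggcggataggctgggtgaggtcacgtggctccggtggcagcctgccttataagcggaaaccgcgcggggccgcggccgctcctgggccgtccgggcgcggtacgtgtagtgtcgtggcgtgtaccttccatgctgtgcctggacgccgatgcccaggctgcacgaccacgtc
The promoter of Hmgcs1 held 1 CACCCCAC and 4 CCAAT matches, while Lss and Insig1 held 1 and Ebp 2 CCAAT matches only. Promoters were found for 19 of the listed sterol genes. CACCCCAC was present in 2 of them (10.5%), Hmgcs1 and Acat2, beside 3.3% of 27025 genes with a RefSeq promoter. CCAAT was present in 17 of the 19 (89.5%), beside 41.1% of all genes. These matches describe the letters in a window of 300 bases and were not tested against the expression values.

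**Figure D4:**
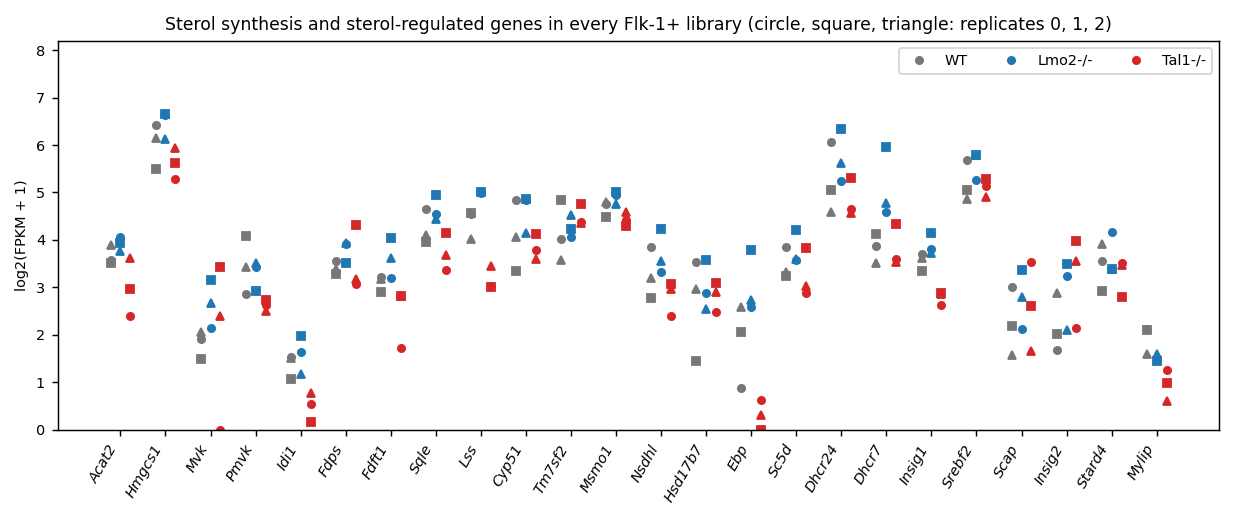
Levels of the 24 tested sterol synthesis and sterol-regulated genes in every Flk-1+ library, in pathway order on the horizontal axis with log2(FPKM + 1) on the vertical axis; grey, blue and red are WT, Lmo2-/- and Tal1-/-, and circle, square and triangle are replicates 0, 1 and 2. For 14 genes all red points lie below all blue points, with Lss and Ebp showing the widest gaps, whereas Tm7sf2, Scap, Insig2 and Stard4 overlap.

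Cardiac genes also set the knockouts apart, and several of them lay above WT in Lmo2-/- cells. Of 13 cardiac transcription factors 11 were tested, 8 of them at 1 FPKM in both knockouts. In Tal1-/- 7 of the 11 were lower without overlap, beside 6.65% of all genes, and 0 were higher. Of the 7, 5 were separated, beside 3.17%. The list's median was 1.07 above WT in Lmo2-/- and -0.37 relative to WT in Tal1-/-. Lmo2-/- lay above all WT libraries for 6 of the 11 and Tal1-/- lay below all WT libraries for 3.

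Smarcd3, which encodes BAF60C, a subunit of BAF chromatin remodelling complexes that acts in the developing heart, was at 4.61, 7.82 and 6.22 FPKM in WT, at 12.8, 15.9 and 17.6 FPKM in Lmo2-/- and at 2.58, 0.903 and 3.71 FPKM in Tal1-/-. The 3 genotypes formed 3 ranges with no overlap (difference -2.36, SE 0.40, limma adjusted p = 0.0938). Hand2, a helix-loop-helix factor of heart and limb, showed the same order, at 11.3, 12.1 and 21.7 FPKM in Lmo2-/-, 5.84, 11.0 and 5.89 FPKM in WT and 5.72, 4.53 and 4.09 FPKM in Tal1-/- (-1.43, limma adjusted p = 0.326).

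Tbx2, a T-box repressor of the atrioventricular canal, was at 5.69, 9.70 and 9.44 FPKM in Lmo2-/-, above WT at 1.37, 3.10 and 2.36 FPKM, and at 4.43, 2.60 and 1.29 FPKM in Tal1-/- (-1.35). Gata4, a zinc finger factor of heart and endoderm, was at 68.3, 114 and 99.8 FPKM in Lmo2-/- and 66.2, 37.2 and 34.0 FPKM in Tal1-/-, a narrow gap at Lmo2-/- replicate 0 and Tal1-/- replicate 0 (-1.05). Gata5 was at 0.412, 2.14 and 2.53 FPKM in Lmo2-/- and listed at 0 in all Tal1-/- libraries. The cardiac factors did not all part. Gata6 was at 18.4, 20.99 and 15.0 FPKM against 21.1, 15.7 and 17.9 FPKM, a difference of 0.01 with a 95% interval from -0.70 to 0.72, and Tbx20 was at 47.6, 48.8 and 43.1 FPKM against 47.5, 30.6 and 28.9 FPKM, a difference of -0.41 (-1.11 to 0.30).

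Contractile genes followed, mostly at low levels. Of 10 tested sarcomere and calcium handling genes 3 reached 1 FPKM in both knockouts. Without overlap 4 of the 10 were lower in Tal1-/-, beside 6.65% of all genes, and 1 was separated. The median of -0.88 was -1.83 with a pseudocount of 0.1 and -0.51 with a filter of 10 FPKM in 1 library. The separated gene, which entered through Lmo2-/- alone, was Myl4, encoding an atrial myosin light chain, at 2.83, 4.39 and 5.51 FPKM in Lmo2-/- and, in Tal1-/-, at 1.39 FPKM in replicate 0 and listed at 0 in the others (-1.94). The abundant tropomyosin gene Tpm1 was at 93.3, 62.7 and 113 FPKM against 52.0, 44.6 and 48.7 FPKM (-0.84), and all Tal1-/- libraries but also Lmo2-/- replicate 1 lay below the WT range of 74.1 to 133 FPKM.

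Among 8 tested smooth muscle genes Myocd (-1.50), Des (-1.20) and Tagln (-1.19), which encode a cardiac and smooth muscle coactivator, desmin and transgelin, were separated and lower. Only 4 of the 8 reached 1 FPKM in both knockouts, so this median rests on weakly expressed genes.

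In the opposite direction lay some genes of FGF signalling, none of which passed the test. The FGF list had 16 of 22 members tested, 15 of them at 1 FPKM in both knockouts. Of these 16, 7 were higher and 2 lower without overlap, beside 7.21% and 6.65% of all genes, with 3 and 1 separated. The list's median was -0.64 relative to WT in Lmo2-/- and -0.03 in Tal1-/-, and without Lmo2-/- replicate 1 the median difference between the knockouts was 0.30.

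The separated feedback inhibitors of the pathway were below all WT libraries in Lmo2-/- and within the WT range in Tal1-/-. Dusp6, a phosphatase of ERK, was at 13.9, 5.998 and 8.77 FPKM in WT, at 4.14, 2.22 and 4.19 FPKM in Lmo2-/- and at 11.6, 6.89 and 6.81 FPKM in Tal1-/- (1.06, limma adjusted p = 0.476). Spry4, another feedback inhibitor, was at 11.99, 5.55 and 4.27 FPKM in WT, 3.69, 3.56 and 2.501 FPKM in Lmo2-/- and 6.52, 11.4 and 7.15 FPKM in Tal1-/- (1.11). The phosphatase gene Dusp4 behaved differently, at 11.1, 9.69 and 11.3 FPKM in Lmo2-/- and 6.60, 6.49 and 7.32 FPKM in Tal1-/-, both below WT (-0.58).

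The ligand Fgf15 was at 10.6, 14.2 and 12.6 FPKM in Lmo2-/- and 23.7, 27.8 and 25.1 FPKM in Tal1-/-, the latter above all WT libraries (0.98). The receptor Fgfr3 went the other way, at 7.42, 10.2 and 13.96 FPKM in Lmo2-/- and 1.24, 0.0624 and 5.28 FPKM in Tal1-/- (-2.19, limma adjusted p = 0.334).

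Of 16 immediate early genes, which are transcribed within minutes of a growth factor signal, 11 were tested, 9 of them at 1 FPKM in both knockouts, and 4 were higher in Tal1-/- without overlap (7.21% of all genes) against 0 lower. None passed the test, 2 were separated, and the median of 0.47 ranged from 0.22 to 0.67 with one library left out. Egr1, a zinc finger factor of this class, was at 5.01, 5.46 and 3.92 FPKM in WT, 1.04, 2.78 and 3.13 FPKM in Lmo2-/- and 11.6, 13.9 and 11.3 FPKM in Tal1-/-. Its 3 genotypes did not overlap (2.06, SE 0.37, limma adjusted p = 0.116). Jun was at 3.40, 3.87 and 2.90 FPKM in Lmo2-/- and 7.60, 5.62 and 4.35 FPKM in Tal1-/- (0.62). Junb was at 0.381 and 0.667 FPKM in Lmo2-/- replicates 0 and 2 and listed at 0 in replicate 1, and at 4.15, 6.83 and 0.766 FPKM in Tal1-/- (1.65), so that its lowest Tal1-/- library was close to Lmo2-/-.

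Factors of the pluripotent cell and of the primitive streak were partly higher in Tal1-/-. Of 18 pluripotency genes 9 were tested, with 2 separated and higher and 0 lower, but only 5 of the 9 reached 1 FPKM in both knockouts and both separated members entered through Tal1-/- alone. The list's median was 0.41 without Tal1-/- replicate 2 and -0.09 among genes with 10 FPKM in at least 1 library. Nanog, a core pluripotency homeobox gene, was at 3.30, 1.42 and 3.69 FPKM in WT, 1.88, 0.144 and 0.987 FPKM in Lmo2-/- and 6.30, 3.19 and 5.92 FPKM in Tal1-/- (1.67, limma adjusted p = 0.334). Fgf4 was separated at 0.970, 0.649 and 0.393 FPKM against 2.67, 3.05 and 1.87 FPKM (1.08). Pou5f1 overlapped, at 4.31, 2.62 and 5.53 FPKM against 10.9, 2.70 and 16.4 FPKM. The summed level of the whole list was 120 to 151 FPKM in Lmo2-/- and 126 to 150 FPKM in Tal1-/-, and a part of residual ES cells in these values was not tested.

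Mixl1, a homeobox gene of the primitive streak and early mesendoderm, was at 122, 30.6 and 30.9 FPKM in WT, 10.9, 37.0 and 14.8 FPKM in Lmo2-/- and 54.9, 103 and 129 FPKM in Tal1-/- (2.24, limma adjusted p = 0.312). It was the only separated member of 11 tested streak genes. The T-box genes Eomes and T (brachyury) differed by -0.11 (95% interval -0.76 to 0.54) and by -0.31 (-1.38 to 0.77), and both were lower than in WT in most knockout libraries. Without Lmo2-/- replicate 1 they differed by -0.27 and 0.19.

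Posterior patterning genes and secreted antagonists differed gene by gene rather than by list. The caudal homeobox gene Cdx2, which entered through Tal1-/- alone, was at 0.814, 0.505 and 0.749 FPKM in Lmo2-/- and 4.64, 4.03 and 5.53 FPKM in Tal1-/-, with the WT libraries no higher than 0.369 FPKM (1.76). Hoxb1 was at 3.55, 5.91 and 5.95 FPKM against 8.36, 12.8 and 20.2 FPKM (1.22). Among Wnt antagonists, Dkk1 was higher in Tal1-/- at 4.68, 19.4 and 14.02 FPKM against 2.08, 2.58 and 2.28 FPKM (1.86), while Apcdd1 was lower at 16.8, 20.5 and 14.8 FPKM against 26.0, 54.7 and 40.6 FPKM (-1.12). The Apcdd1 difference was -0.88 without Lmo2-/- replicate 1.

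The follistatin gene Fst, an activin and BMP antagonist that also entered through Tal1-/- alone, was higher at 3.51, 11.2 and 3.56 FPKM against 0.393, 0.853 and 0.930 FPKM (1.89). The BMP response gene Id3 was lower at 4.74, 2.60 and 0.295 FPKM against 6.25, 19.4 and 7.68 FPKM (-1.86, or -1.41 without Lmo2-/- replicate 1). Bmp4 itself was at 24.5, 35.0 and 31.3 FPKM against 39.8, 51.6 and 77.8 FPKM, without overlap (-0.84). The medians of the Wnt antagonist (0.09), Wnt target (-0.01), Wnt ligand and receptor (0.03) and BMP (-0.10) lists were all near that of all genes.

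Partners of the TAL1-LMO2-LDB1 complex were lower in Tal1-/- than in Lmo2-/- where they differed. Of 15 tested members, 13 of them at 1 FPKM in both knockouts, 4 were separated and lower, beside 3.17% of all genes, and 0 were higher. The 4 include Tal1 itself, the gene targeted in 1 of the groups. After removal of a trend on GC content, described below, 2 members were separated and lower. Gata2, a GATA factor of early blood progenitors, was at 31.4, 12.6 and 6.93 FPKM in WT, 3.44, 9.78 and 3.24 FPKM in Lmo2-/- and 0.501, 1.05 and 0.997 FPKM in Tal1-/- (-1.68, limma adjusted p = 0.407). Its difference was -1.245 without Lmo2-/- replicate 1, and only 1 Tal1-/- library reached 1 FPKM. Ldb1, encoding the partner that LMO2 bridges to, was at 37.4, 54.3 and 103 FPKM in Lmo2-/- and 25.5, 26.3 and 23.7 FPKM in Tal1-/- (-1.21). The E-protein gene Tcf3 was at 15.5, 15.3 and 29.8 FPKM against 10.01, 7.91 and 6.92 FPKM (-1.14).

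Several vascular genes were also lower in Tal1-/-, some of them with the highest Lmo2-/- value in replicate 1. Sox7, an endothelial HMG-box factor, was at 3.28, 18.7 and 2.59 FPKM in Lmo2-/- and 0.747, 0.226 and 1.66 FPKM in Tal1-/- (-1.91, limma adjusted p = 0.424), and without Lmo2-/- replicate 1 the difference was -1.13. Cdh5, encoding VE-cadherin, entered through Lmo2-/- alone and was at 0.841, 3.07 and 1.24 FPKM against 0.279, 0.062 and 0.243 FPKM (-1.10). Leaving out Lmo2-/- replicate 1 gave -0.77 for Cdh5. The row that joins Egfl7 with Fam69b, Gm20532 and Mir126a was at 29.4, 20.2 and 43.7 FPKM against 2.67, 11.5 and 2.67 FPKM (-2.47, limma adjusted p = 0.187), and which of the joined genes carried the signal cannot be told.

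Kdr, on whose product the cells were sorted, was at 106, 151 and 101 FPKM in Lmo2-/- and 86.0, 77.2 and 68.7 FPKM in Tal1-/- (-0.61, 95% interval -1.41 to 0.19). Pdgfra, joined with Mir7025, was at 28.3, 27.9 and 25.3 FPKM against 40.9, 45.4 and 43.6 FPKM (0.65, -0.02 to 1.32). The stem cell factor receptor gene Kit was higher in Tal1-/-, at 4.58, 7.53 and 10.7 FPKM against 2.40, 4.24 and 2.88 FPKM (1.00). Over the endothelial surface list 11 of 23 genes were tested, with 1 separated and higher and 2 lower, and its median moved from -0.56 to -0.25 without Lmo2-/- replicate 1.

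Other blood and endothelial regulators did not separate the knockouts. Fli1, an ETS factor of blood and endothelium, was at 14.03, 11.5 and 9.62 FPKM in WT, 1.20, 0.928 and 0.926 FPKM in Lmo2-/- and 0.510, 1.13 and 1.73 FPKM in Tal1-/-, so that it was low in both (0.04, 95% interval -0.78 to 0.85). Runx1, which is needed for definitive blood, was at 7.20, 3.69 and 4.44 FPKM in Lmo2-/- and 4.17, 5.97 and 3.49 FPKM in Tal1-/- (-0.12, -0.97 to 0.72), and all 6 libraries were below the WT values of 17.2, 10.8 and 8.15 FPKM. Etv2, an ETS factor that specifies haemangioblasts, differed by 0.45 (-0.57 to 1.48). Of 20 haematopoietic transcription factors 8 were tested and Tal1 alone was separated, with none separated once Lmo2-/- replicate 1 was left out. None of 11 erythroid genes reached the level for testing, and 8 were listed at 0 in all 6 libraries.

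Imprinted genes differed at single loci. Of 21 tested genes expressed from the paternal allele 3 were separated and higher and 0 lower in Tal1-/-. Of 19 tested genes expressed from the maternal allele 3 were separated and lower and 0 higher. Among all tested genes 1.9% were separated and higher and 3.17% separated and lower. The higher genes include the neighbours Peg3 and Usp29. The lower ones include Zim1, which was moved between the lists after its values had been seen, so these counts are a description only. At the Peg3 locus on chromosome 7, the paternally expressed Peg3 (6703892-6730431, minus strand) was at 278, 260 and 260 FPKM in Lmo2-/- and 673, 663 and 740 FPKM in Tal1-/- (1.38, limma adjusted p = 0.289). Its neighbour Usp29, joined with Gm27675, was at 2.02, 2.96 and 2.44 FPKM against 7.08, 9.40 and 6.33 FPKM (1.30). The maternally expressed Zim1 (6671269-6696450, minus strand) on the other side was at 8.06, 4.05 and 8.10 FPKM against 0.789, 1.04 and 2.79 FPKM (-1.64).

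Dlk1, a paternally expressed Notch family ligand gene, was at 5.05, 2.29 and 10.1 FPKM in Lmo2-/- and 27.3, 16.7 and 15.0 FPKM in Tal1-/- (1.73), and the cell cycle inhibitor gene Cdkn1c was at 17.8, 30.3 and 20.5 FPKM against 11.3, 6.21 and 13.8 FPKM (-1.09). Peg10 was at 1174, 1295 and 1160 FPKM against 1979, 1957 and 1946 FPKM (0.70), and both ranges overlapped that of WT. Igf2 overlapped, with a difference of -0.89 (95% interval -1.93 to 0.15), or -0.51 without Lmo2-/- replicate 1. H19 varied widely between replicates of one genotype, from 28.9 to 672 FPKM in Lmo2-/- and from 25.0 to 2446 FPKM in WT, and Lmo2-/- replicate 1 and WT replicate 0 were the low libraries. The same pair had the lowest Airn, at 3.56 and 3.66 FPKM. Zim1, Slc38a4 and Gab1 were moved between the lists after the values had been seen.

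Functions common to all cells had list medians near 0. Their separated members are read against 1.9% higher and 3.17% lower among all tested genes. Of 28 tested cell cycle genes 2 were separated, both higher in Tal1-/-: Ccne1, encoding cyclin E, at 10.7, 16.6 and 23.1 FPKM against 2.90, 9.41 and 6.87 FPKM (1.32) and Ccnb1, encoding cyclin B, at 16.9, 24.4 and 16.0 FPKM against 11.5, 4.94 and 7.88 FPKM (1.18). The list's median was -0.01, with Mki67 at 0.28 (95% interval -0.44 to 1.00) and Cdk1 at -0.16 (-0.80 to 0.48). Mki67 was at 0.17 without Lmo2-/- replicate 1. Among 29 tested subunits of oxidative phosphorylation 1 was separated (median 0.09), and among 15 housekeeping genes none (median -0.14). Of 30 tested ribosomal protein genes 1 was separated and higher and 2 were separated and lower (median -0.16).

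None of 10 tested genes of DNA methylation (median -0.28), 10 of Nodal and TGF-beta signalling (-0.12), 12 of retinoic acid signalling (-0.01), 10 of epithelial to mesenchymal transition (0.01), 6 neural (-0.33) or 4 endodermal genes (-0.05) was separated. Dnmt1 differed by -0.40 (95% interval -1.05 to 0.24). Of the glycolysis and hypoxia genes 2 of 23 were separated and lower, beside 3.17% of all genes. Among them was Vegfa, the Flk-1 ligand gene, at 46.6, 49.6 and 103 FPKM in Lmo2-/- and 37.0, 8.14 and 29.3 FPKM in Tal1-/- (-1.52). With 3 libraries a group, differences inside these intervals were not detectable.

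Markers of fibroblasts, the feeder cells of the ES cultures, were checked in the same libraries. Of 10 such genes 6 were tested, and their summed level was 52.2 to 80.2 FPKM in Lmo2-/-, 47.3 to 74.9 FPKM in Tal1-/- and 31.6 to 50.8 FPKM in WT. The matrix gene Postn was listed at 0 in all WT and Lmo2-/- libraries and was at 0.678, 1.84 and 3.02 FPKM in Tal1-/-. Dcn and Lum were at or near 0, as given above, while Col1a1, which mesoderm also expresses, lay between 4.54 and 30.3 FPKM and overlapped between the knockouts.

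The base composition of transcripts moved with the comparison. GC content, taken from the longest annotated transcript, was available for 99.1% of tested genes. When the genes were divided into 5 equal groups by GC content, from the lowest (median 41.0%) to the highest (57.6%), the median difference went from 0.20 through 0.09, 0.03 and -0.11 to -0.29. Separated higher genes numbered 73 in the lowest group and 22 in the highest, and separated lower genes 29 and 167. After a smooth trend on GC content had been removed from every library, an alternative chosen after seeing the data, 6 genes were called and 245 and 333 were separated and higher or lower.

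The list medians were affected unequally. Those of the sterol (-0.68), cardiac factor (-0.90), sarcomere (-0.88), pluripotency (0.82) and FGF genes (0.50) stayed close to their values on the FPKM as deposited, and that of the immediate early genes was larger (0.81). The medians of the endothelial surface genes (-0.29) and of the maternally expressed imprinted genes (-0.28) were nearer 0. Under this setting Pdzk1ip1 (limma adjusted p = 0.0293), Egr1 (0.0293) and Lss (0.0487) passed the threshold. The part of base composition in the other differences was not tested.

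**Figure D5:**
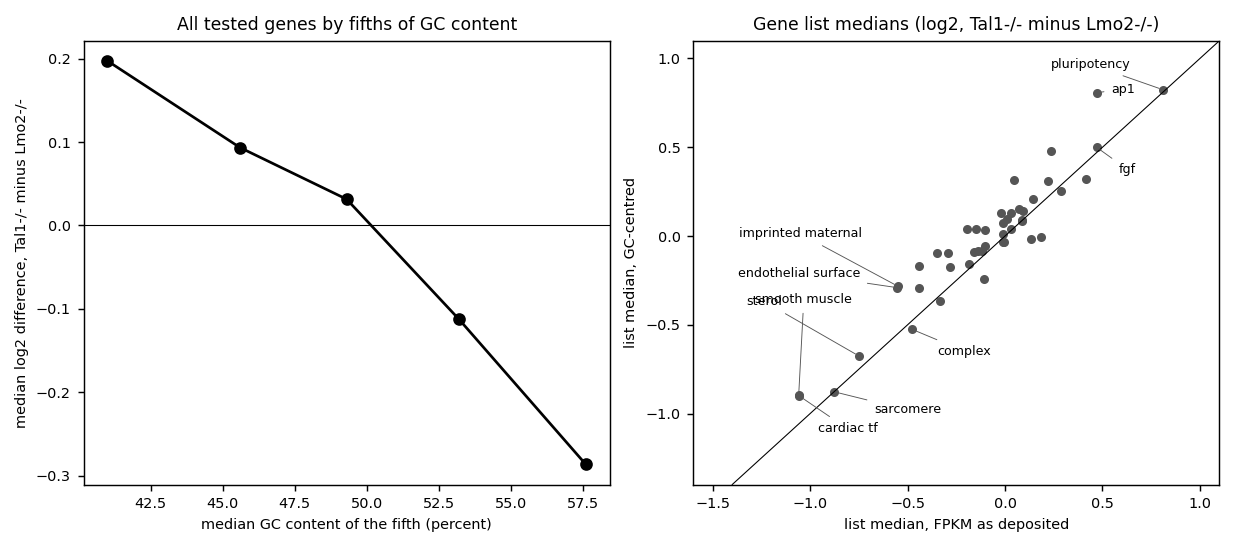
Left, median difference between Tal1-/- and Lmo2-/- (log2 FPKM + 1) in 5 equal groups of tested genes by GC content in percent, going from 0.20 to -0.29; right, medians of the gene lists on FPKM as deposited (horizontal axis) and after removal of the GC trend (vertical axis), with the line of equality. The sterol, sarcomere, pluripotency and FGF medians lie near the line, and the endothelial surface and maternally imprinted medians lie above it, nearer 0.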

How the data were processed

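RNAseq libraries were made with a stranded mRNA kit, 3 independent ones for each of the WT, Lmo2-/- and Tal1-/- genotypes of Flk-1+ cells; 4 libraries of HE1 (haemogenic endothelium), 2 each of WT and Lmo2-/-, entered one alternative only. The authors aligned reads to GRCm38 with TopHat2 2.0.9, assembled transcripts with Cufflinks 2.0.0 (per the submitters' processing notes, which also name Cuffdiff 2.0.1) and deposited FPKM values normalized across libraries. Columns of the authors' own fold changes and p-values were not used, and 0 per-sample columns were left out. Sample groups came from the labels and library numbers from the column names. The deposited values give no counts, so depth is unknown; steps between low FPKM put the value of 1 fragment at 0.642 (WT replicate 1) to 1.25 (Lmo2-/- replicate 1) of that in Lmo2-/- replicate 0 on this rescaled scale, and the number of libraries limits the precision.

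Genes with a locus over 200 bp and FPKM of at least 1 in 2 of the 6 knockout libraries were tested on log2(FPKM + 1) with limma 3.58.1 (R 4.3.3), 9 libraries in 1 fit with a trended variance and two-sided p-values. A gene was called where either knockout averaged over 10 FPKM and p stayed under 0.05 after Benjamini-Hochberg adjustment. Exact permutation p-values over 3 against 3 libraries cannot go below 0.1. The study describes the Flk-1+ replicates as biological triplicates, each genotype being one ES cell line, so p-values measure the spread between these libraries only. On simulated data for this comparison with 12259 genes, 137 of 200 changed genes were found, all in the right direction, with 5 false calls. The changed genes were drawn from abundant genes only and had a mean estimated log2 change of 2.01 in size. The share found therefore does not apply to smaller changes or to less abundant genes. Named were Lmo2 and Tal1, the called genes, the 10 largest separated rises and falls with a mean of at least 10 FPKM, and up to 4 members per direction and 4 abundant others of each list; genes outside this rule were chosen after their values were seen. The members and lists were chosen with earlier results of these data known. Same-numbered Lmo2-/- and Tal1-/- libraries did not deviate together (r = -0.0622, 0.0116 and 0.0272), so the numbers were not taken as pairs. The labels do not say whether the numbers mark a batch. Alternatives varied the pseudocount, filters, libraries, variance model and scaling. Tables and figures were made with Python 3.11.15, pandas 2.3.3, numpy 2.4.6, scipy 1.17.1 and matplotlib 3.10.9. Some genes are not reported here. Promoter sequences were taken from RefSeq (GRCm38.p6).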

Additional observations from a re-analysis of the deposited data

Results flagged for a closer look

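For 9 of the named genes that were followed through the alternatives, every Lmo2-/- library lay on one side of all WT libraries and every Tal1-/- library on the other. Many of the named genes were chosen for the size of their difference. The share of all tested genes with this order is not given here, so the 9 are a description only. The difference between the knockouts on the log2(FPKM + 1) scale was 3.01 for Tex15, 2.06 for Egr1, -1.84 for Lss, -1.10 for Insig1, -2.36 for Smarcd3, -1.43 for Hand2, -1.12 for Apcdd1, -3.35 for Lppr3 (a lipid phosphatase-related membrane protein gene) and -2.94 for the row that joins Capn6, a calpain family gene, with BX530055.1. The difference itself was tested with limma, and Tex15 alone passed after adjustment over all genes (adjusted p = 0.0249, range over the alternatives 0.0115 to 0.154). Leaving out Lmo2-/- replicate 1 gave smaller differences of -0.88 for Apcdd1 and -0.97 for Insig1. The libraries of Lppr3 were at 7.87, 9.89 and 16.5 FPKM in Lmo2-/-, 0.762, 3.44 and 7.20 FPKM in WT and 0.299 and 0.235 FPKM in Tal1-/- replicates 1 and 2, with replicate 0 listed at 0 (adjusted p = 0.0741). Capn6 was at 27.8, 30.04 and 27.1 FPKM in Lmo2-/-, 17.2, 9.30 and 11.6 FPKM in WT and 7.79, 0.696 and 2.73 FPKM in Tal1-/- (adjusted p = 0.096). With 3 libraries a group, no test for a single outlying library was made.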

How the results depend on the processing

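The number of called genes (3) was 1 with a pseudocount of 0.1, 1 with a filter of 10 FPKM in 1 library, 0 with no filter on low values, 0 with the replicate block, 6 after removal of the GC trend, which was added after seeing the data, and 0 to 5 when one library was left out. The count of separated genes that were higher in Tal1-/- (233) was 378 with a pseudocount of 0.1, 124 with the filter of 10 FPKM, 884 with no limit on the difference and 289 to 486 with one library left out; for lower genes (388) it was 182, 815 and 490 to 700 with the filter, with no limit and with one library left out. Fewer libraries have less chance to overlap, so the last ranges exceed the full counts by construction. The labels do not say whether libraries of the same number share a batch. No Lmo2-/- or Tal1-/- library correlated best with its own number in the other knockout, and WT libraries were not compared in this way. Why the calls were lost under the block was not tested. Signs reversed for genes near 0. Gata6 was -0.037 with quantile normalization and -0.014 with a common median, Fli1 -0.095 and Eomes 0.016 after removal of the GC trend. With one library left out Gata6 ranged from -0.11 to 0.12, Fli1 from -0.17 to 0.26, Eomes from -0.27 to 0.071, Runx1 from -0.30 to 0.11, T from -0.66 to 0.19, Lmo2 from -1.54 to 0.0057, Cdk1 from -0.29 to 0.032 and Etv2 from -0.074 to 0.82. Of the values of named genes under the alternatives, 1325 kept their direction and side of the threshold, 28 lost and 6 gained significance, and 14 reversed. Of the list medians 750 moved by less than their limit and 83 by more. The cause of these changes was not tested. With FPKM alone, low genes have no count to set an interval.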
